A study of Homo sapiens with 6 samples.

Results

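The nuclear-encoded subunits of the mitochondrial respiratory chain and ATP synthase were compared between EFTUD2-overexpressing and control cells of the human liver cancer line Hep G2, which grows in culture. The members were chosen by gene name, as the genes whose symbols start with NDUFA, NDUFB, NDUFC, NDUFS, NDUFV, UQCR, COX4 to COX8 or ATP5, without the NDUFAF assembly factors, together with SDHA, SDHB, SDHC, SDHD and CYC1. This rule took 91 of the 23524 genes in the table, 40 in complex I, 4 in complex II, 10 in complex III, 16 in complex IV and 21 in complex V (ATP synthase). It also takes genes that are not standard subunits. Among them are the readthrough genes NDUFC2-KCTD14 and ATP5MF-PTCD1, the gene copies UQCRHL and ATP5MGL, ATP5S, and ATP5IF1, an inhibitor of ATP synthase. Per the labels, the 3 control libraries came from cells given an empty vector and the 3 EFTUD2 libraries from cells given the EFTUD2 gene. A figure legend of the paper names lentivirus for both the overexpression and the vector cells of Hep G2. EFTUD2 is a GTPase of the spliceosome, the machine that removes introns from RNA. The methods speak of independent experiments in general, but no label ties the numbered libraries to separate cultures or clones, so the p-values measure only the spread between these libraries, which may be technical.

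The respiratory chain passes electrons from NADH, at complex I, and from succinate, at complex II, through complexes III and IV to oxygen. Complexes I, III and IV pump protons across the inner mitochondrial membrane, and ATP synthase lets them flow back to make ATP. Most subunits are encoded in the nucleus and imported, while a few core subunits of complexes I, III, IV and V are encoded in the mitochondrial genome. The genes of the mitochondrial genome were not analysed here.

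The values are FPKM (fragments counted per gene, divided by transcript length and by library size), which the authors deposited without read counts, so the depth of each library is unknown. Summed over all genes, they came to 404342 to 434542 FPKM per library. EFTUD2 (Entrez gene 9343) measured 41.1, 54.4 and 46.3 FPKM in control cells against 107, 103 and 109 FPKM in EFTUD2-overexpressing cells, a log2 fold change of 1.16 (limma, adjusted p = 0.131). EFTUD2 replicate 3 stood apart from the other libraries and was the lowest of the 6 for 45.7% of all genes tested, so results are given with and without it where they depend on it. The mean reached 1 FPKM for all 10 hepatocyte markers, with summed levels of 7240 to 11100 FPKM in the controls and 9890 to 14800 in the EFTUD2 libraries. The 6 endothelial markers all stayed below that level, at sums of 1.26 to 1.68 and 1.32 to 1.75 FPKM. Of 7 fibroblast markers 1 reached it (PDGFRB), COL1A2 was listed at 0, and the sums were 0.51 to 1.58 FPKM in the controls and 2.33 to 4.82 in the EFTUD2 libraries. Of 7 macrophage markers 3 reached it, with TYROBP listed at 0 and sums of 775 to 2280 and 885 to 1750 FPKM. These sums were led by LYZ, and the highest single value was 2260 FPKM. Of 6 muscle markers 1 reached it (ACTA1), with sums of 3.01 to 3.58 and 1.43 to 4.42 FPKM. The part of the fibroblast markers in the results below was not tested. The titles of all 6 libraries name Hep G2 and no other cell type. In bulk RNA, fewer cells that express a marker and less of its RNA per cell cannot be told apart.

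No gene passed the adjusted threshold on the deposited FPKM, not even EFTUD2 (limma, adjusted p = 0.131). The paper does report genes with significant differences in EFTUD2-overexpressing cells, and its methods name no test for them. The outcome by limma does not set the respiratory chain genes apart, and most of their differences between the groups were small. Mean levels reached 0.1 FPKM in 85 members, and limma, on the log2(FPKM + 1) scale, gave 0 of these an adjusted p under 0.05, beside 0.0% of the 17222 genes tested, and the smallest adjusted p of a member was 0.207. At an unadjusted p under 0.05, 3 members were higher in EFTUD2-overexpressing cells (ATP5MC2, COX6C and COX7C), against 4.4% of all genes tested, and 1 was lower (NDUFA6), against 7.9%. The median log2 fold change of the members was -0.07 (quartiles -0.15 and 0.05), the same as the median of all genes tested. It was 0.04 under median-of-ratios scaling (each library divided by its median ratio to the mean profile of the genes), a setting that brought the median of all genes to 0.00. Of the 85 members, 33 were higher (38.8%, against 37.3% of all genes tested) and 52 lower in the EFTUD2 libraries as deposited. With that scaling, 58 were higher (68.2%, against 50.3% of all genes tested) and 27 lower, and 25 members changed sign.

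The differences of most members lay in a narrow range. The 95% interval of the fold change of FPKM + 1 lay wholly within 1.5-fold in either direction for 69 of the 85 members (81.2%). The same held for 53.2% of all genes tested and 51.8% of those whose mean reached 10 FPKM. By complex, this held for 31 of 40 members in complex I, 4 of 4 in complex II, 10 of 10 in complex III, 8 of 12 in complex IV and 16 of 19 in complex V. On the log2(FPKM + 1) scale, a difference of over 1.5-fold was seen for 1 member, NDUFA6 (1.18%), against 5.96% of all genes. That scale understates low genes. The ratio of mean FPKM, EFTUD2 over control, was 2.55 for NDUFA4L2, 3.13 for COX6B2 and 0.216 for UQCRHL. Each had a mean under 1 FPKM over the 6 libraries, and UQCRHL is among the 10 counted above in complex III. The values of the EFTUD2 and control libraries did not overlap for 6 members higher in the EFTUD2 libraries (7.06%) and for 6 lower (7.06%). Over all genes tested, these shares were 7.92% higher and 19.4% lower. The lower count rests on single libraries, at 24 members without control replicate 1 and 21 without EFTUD2 replicate 2, beside 26.6% of all genes in each case. The higher count was 13 without EFTUD2 replicate 3, beside 14.8% of all genes, and 10 without control replicate 2, beside 9.81%.

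**Figure D1:**
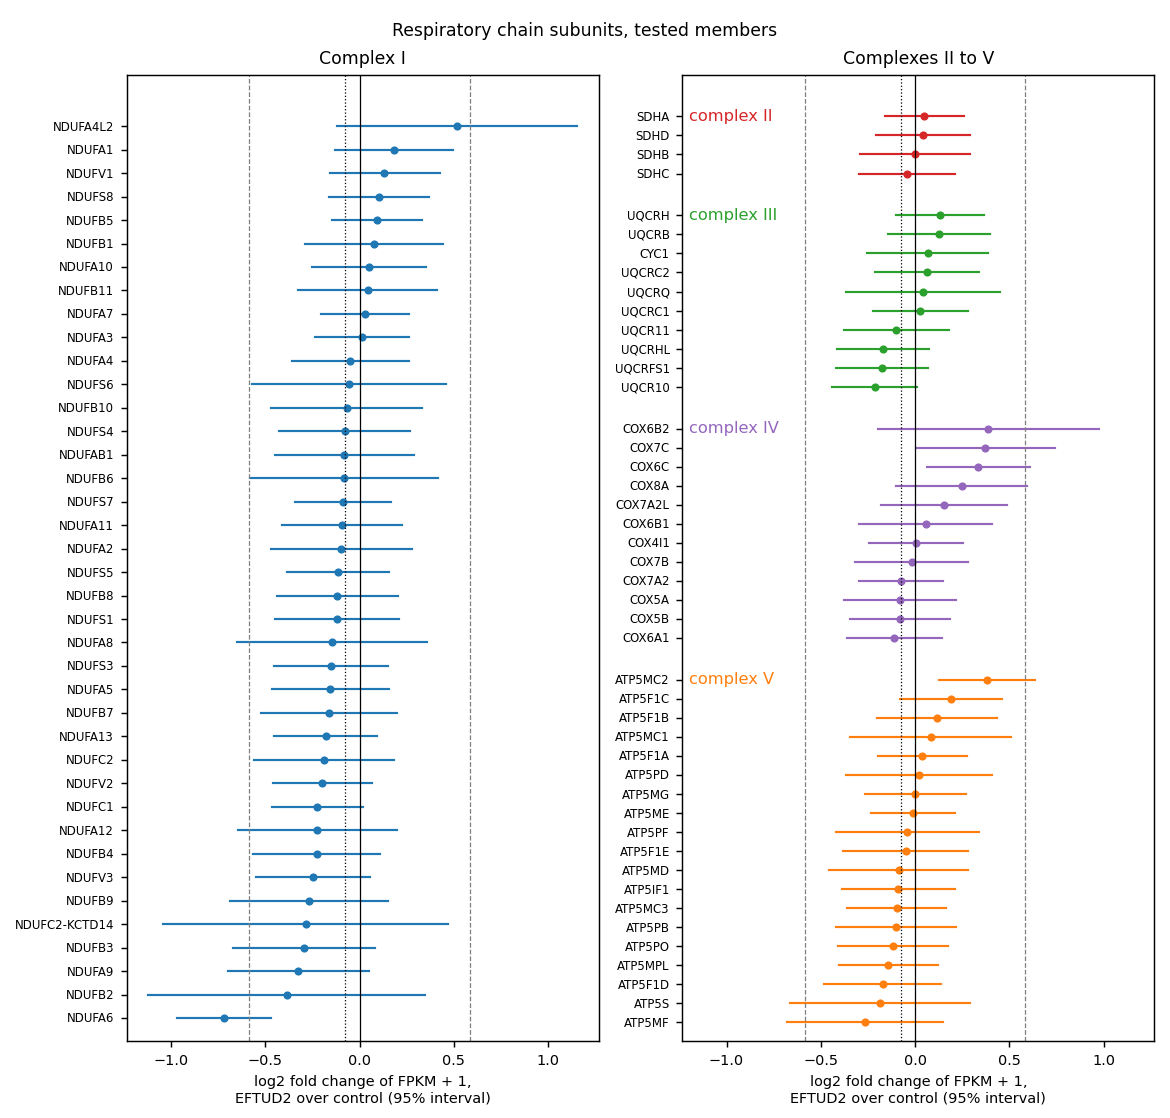
Log2 fold change of FPKM + 1, EFTUD2 over control, for 84 of the 85 tested members in order of size within each complex, with 95% intervals from limma, a dotted line at the median of all genes and dashed lines at 1.5-fold. Most points lie close to 0 with intervals that span it, and NDUFA6 stands apart at -0.72.

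The summed level of all members was 1.86% ± 0.13 (SD, n = 3) of all FPKM in the controls and 1.79% ± 0.145 (SD, n = 3) in the EFTUD2 libraries. Complex I took 0.601% ± 0.0444 and 0.544% ± 0.0696 of all FPKM, complex IV 0.44% ± 0.0328 and 0.452% ± 0.021, and complex V 0.566% ± 0.046 and 0.548% ± 0.0506 (SD, n = 3 each). The sums of complexes II and III were 0.0516% ± 0.0026 and 0.0507% ± 0.00215, and 0.197% ± 0.00522 and 0.195% ± 0.00402 (SD, n = 3 each). In each complex the difference between the group means was less than the sum of the SDs of the groups.

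Compared per length of transcript, as FPKM allows, the members of a complex did not share a common RNA level. Among the 82 members whose mean level reached 1 FPKM, complex IV had the narrowest range of the larger complexes, from 74.0 FPKM (COX6C) to 300 FPKM (COX7C), a ratio of 4.05. Complex I ran from 6.66 FPKM (NDUFA5) to 179 FPKM (NDUFA4), a ratio of 26.9, with a median of 51.4 FPKM. That ratio rests on NDUFA4, which is now counted with complex IV, and the next highest member was NDUFAB1 at 140 FPKM. Complex III ran from 13.9 FPKM (UQCRB) to 192 FPKM (UQCRH). Complex V ran from 6.0 FPKM (ATP5S) to 336 FPKM (ATP5F1E), a ratio of 56.1. That ratio rests on ATP5S, which is not a standard subunit, and the next lowest member was ATP5PF at 46.6 FPKM. The 4 subunits of complex II lay close together, from 40.7 FPKM (SDHC) to 69.4 FPKM (SDHA).

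**Figure D2:**
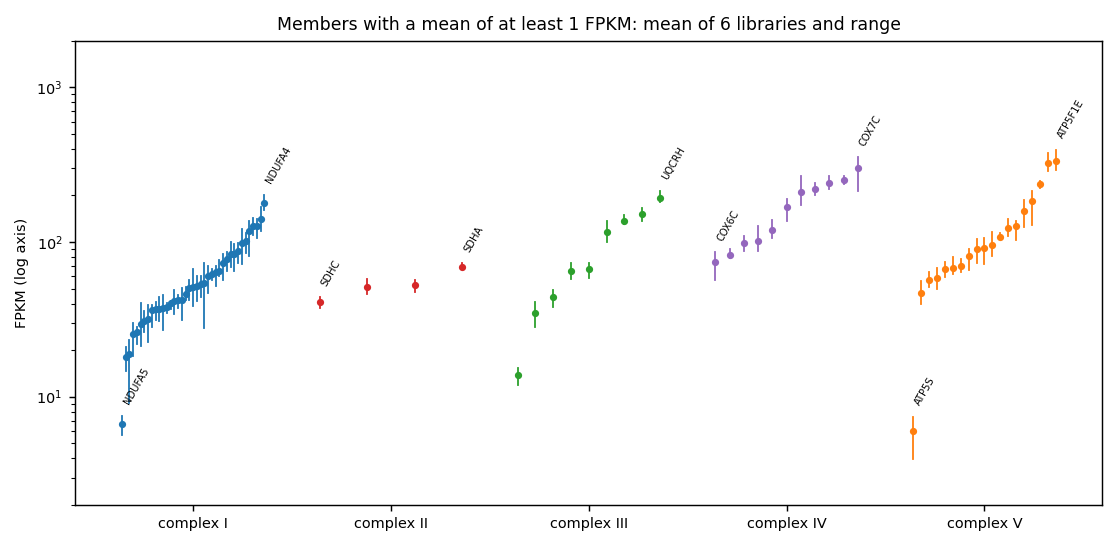
Level in FPKM, on a log axis, of the 82 members whose mean reached 1 FPKM, each point the mean of the 6 libraries and each line their range, in order of level within each complex. The members of complex IV lie between 74.0 and 300 FPKM, while those of complex I, with NDUFA4 at the top, spread from 6.66 to 179 FPKM.

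A few sequence features known from promoters of nuclear genes for mitochondrial proteins were counted in 300-base windows around RefSeq transcription starts (assembly GRCh38.p14), which 72 of the 91 members had. Both strands were searched. The letters GCATGCGC, the core of the site of the activator NRF1, were found in 15 of the members' 86 windows (17.4%), against 3.05% of all 35116 windows. The core and its reverse complement share 6 letters and can overlap. The ETS core CCGGAAG, as bound by GABPA, was found in 25.6% of the members' windows against 10.3% of all windows, and the YY1 core AAGATGGC in 15.1% against 2.89%. The letters CCAAT were found in 32.6% against 34.6%. The windows of 1 gene can overlap, and a match is a description of the letters only.

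The NRF1 core stood in the windows of NDUFA6, the member with the largest negative difference, of ATP5MC2, a member with a positive difference, and of SDHB, whose groups had nearly equal means. The sites are shown to set these 3 members side by side, each as 30 bases on the strand of its gene, 5′ to 3′, with the core or its reverse complement in capitals:

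NDUFA6, chr22:42090920-42090949, minus strand: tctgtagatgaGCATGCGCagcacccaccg

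ATP5MC2, chr12:53676105-53676134, minus strand: gcccgggtcacGCATGCGCtgagccttcct

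ATP5MC2, another start, chr12:53676370-53676399, minus strand: gtgtgacgactGCGCATGCtcggaaagggg

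SDHB, chr1:17054214-17054243, minus strand: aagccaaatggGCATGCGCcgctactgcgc

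In GENCODE release 29, the NDUFA6 site lies in an untranslated exon stretch of NDUFA6 that is also covered by an exon of NDUFA6-DT on the opposite strand. Both ATP5MC2 sites lie in exons of some of its transcripts, and the SDHB site lies outside exons. The cores began 166 bases before the RefSeq start of NDUFA6, 40 and 58 bases before the starts of ATP5MC2 and 200 bases before that of SDHB. These 3 members were chosen from the 14 whose windows held the core. The adjusted p was 0.207 for NDUFA6 and 0.402 for ATP5MC2 (limma). Whether the core goes with the direction of a difference was not tested.

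Complex I, the NADH dehydrogenase and the largest complex, was the one with the most members that were lower, 30 of 40. The share that was higher was 25.0%, against 37.3% of all genes tested and 30.3% of those whose mean reached 10 FPKM. The median log2 fold change of complex I was -0.11 as deposited and 0.01 with median-of-ratios scaling. Without EFTUD2 replicate 3, 23 were lower and the median was -0.01, and it was -0.20 without control replicate 1 and also without EFTUD2 replicate 2. Of its 40 members, 4 were lower in all EFTUD2 libraries than in any control library (NDUFA6, NDUFA9, NDUFC1 and NDUFV2), and 0 were higher, beside 19.4% and 7.92% of all genes tested. NDUFA6 (Entrez gene 4700), an accessory subunit of the matrix arm on chromosome 22 from 42085525 to 42090955 (GRCh38), measured 37.4, 40.2 and 34.0 FPKM in control cells against 23.0, 22.2 and 21.3 FPKM in EFTUD2-overexpressing cells. The groups were far apart, and the 3 EFTUD2 values lay close together. The means were 37.2 ± 3.11 and 22.2 ± 0.82 FPKM (SD, n = 3 each), a ratio of 0.596. The log2 fold change was -0.72 (standard error 0.10, 95% interval -0.97 to -0.47), with an unadjusted p of 0.000263 and an adjusted p of 0.207 (limma), and the exact permutation p was 0.1, the smallest that 3 libraries against 3 can give. Without EFTUD2 replicate 3, the log2 fold change was -0.69 and the adjusted p 0.0444, and over all settings tried the log2 fold change ran from -0.78 to -0.61 and the adjusted p from 0.0143 to 0.656, with 0.416 under the replicate block. NDUFA6 overlaps NDUFA6-DT, on the opposite strand, by 25 bases, and whether the counting used strand is not given in the sources used here.

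**Figure D3:**
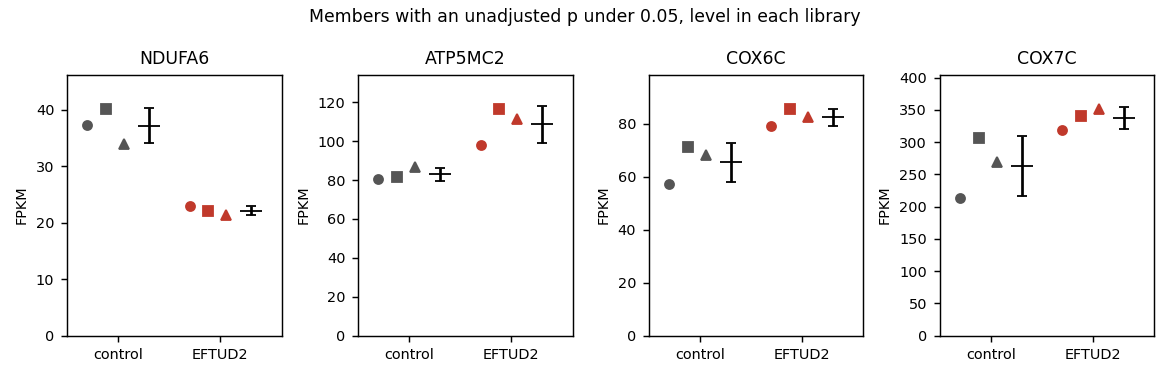
FPKM of the 4 members with an unadjusted p under 0.05 in each library (circle, square and triangle for replicates 1, 2 and 3; grey control, red EFTUD2), with the group mean and SD as a bar. NDUFA6 lies at 34.0 to 40.2 FPKM in the controls and at 21.3 to 23.0 in the EFTUD2 libraries, and the other 3 genes are higher in every EFTUD2 library than in any control.

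The 7 nuclear-encoded core subunits of complex I as a set hold the flavin, the iron-sulfur clusters and part of the quinone site. They had a median log2 fold change of -0.09 (0.03 with median-of-ratios scaling). Of them 2 were higher, and the interval of each of the 7 lay within 1.5-fold. NDUFV1, which binds NADH, stood at 61.0 ± 7.61 and 66.6 ± 3.52 FPKM (SD, n = 3 each). NDUFV2, an iron-sulfur subunit beside it, measured 106, 115 and 102 FPKM in control cells against 96.9, 100 and 84.5 FPKM in EFTUD2-overexpressing cells, a log2 fold change of -0.20 (adjusted p = 0.443) that was -0.12 without EFTUD2 replicate 3, with no overlap. NDUFS1, the largest iron-sulfur subunit, had a log2 fold change of -0.12, and NDUFS3, NDUFS7 and NDUFS8 ran from -0.15 (NDUFS3) to 0.10 (NDUFS8).

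The accessory subunits of complex I held its larger differences. NDUFA9, which supports the arm near the quinone site, measured 32.7, 38.9 and 34.8 FPKM in control cells against 30.1, 32.5 and 22.6 FPKM in EFTUD2-overexpressing cells, a log2 fold change of -0.32 (adjusted p = 0.413), and of -0.17 without EFTUD2 replicate 3. NDUFC1, a small membrane-arm subunit, stood at 37.7, 41.1 and 40.0 against 34.4, 35.8 and 31.1 FPKM, a log2 fold change of -0.22 (adjusted p = 0.407). Both genes were named after their values were seen, and in both the lowest of the 6 values was that of EFTUD2 replicate 3.

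NDUFB2, another small subunit of the membrane arm, had the second most negative difference of complex I, at -0.39 (log2, standard error 0.31) and an adjusted p of 0.55. Its values were 49.3, 72.9 and 59.7 FPKM in the controls and 53.2, 63.5 and 27.9 FPKM in the EFTUD2 libraries. Only EFTUD2 replicate 3 lay below the controls, and without it the log2 fold change was -0.04. Among the 11 NDUFB genes, which encode subunits of the membrane arm, this library was the lowest of the 6 in 10. NDUFA1, a small membrane-arm subunit with the largest positive difference in complex I after NDUFA4L2, stood at 78.6 ± 8.81 and 89.4 ± 9.86 FPKM (SD, n = 3 each), a log2 fold change of 0.18 (adjusted p = 0.513) that was 0.09 without control replicate 1 and 0.10 without EFTUD2 replicate 2.

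Complex II, the succinate dehydrogenase that also serves the citric acid cycle, had the narrowest range of differences. The catalytic flavin subunit SDHA measured 67.0, 68.6 and 69.2 FPKM in control cells against 69.4, 72.9 and 69.6 FPKM in EFTUD2-overexpressing cells. The groups did not overlap, but by a gap smaller than the spread within either group, and the log2 fold change was 0.05 (95% interval -0.16 to 0.26, adjusted p = 0.793). The iron-sulfur subunit SDHB stood at 51.4 ± 5.58 and 51.3 ± 4.59 FPKM (SD, n = 3 each). The membrane anchors SDHC and SDHD had log2 fold changes of -0.04 and 0.04. The median of the 4 was 0.02 as deposited, 0.14 with median-of-ratios scaling and -0.02 with a common sum per library.

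Complex III, the cytochrome bc1 complex, had 6 members higher and 4 lower, with a median log2 fold change of 0.04 that was -0.01 with a common sum and 0.15 with median-of-ratios scaling. UQCRH, the hinge subunit that contacts cytochrome c1, measured 180, 186 and 183 FPKM in control cells against 192, 196 and 213 FPKM in EFTUD2-overexpressing cells, a log2 fold change of 0.13 (95% interval -0.10 to 0.36, adjusted p = 0.531). Every EFTUD2 value lay above every control value. UQCRHL, a copy of UQCRH, was at most 0.3 FPKM, and how the authors' counting shared reads between the copies is not given in the sources used here.

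The other subunits of complex III lay on both sides of 0. UQCRFS1, the Rieske iron-sulfur protein, measured 70.3, 72.9 and 70.4 FPKM in control cells against 61.8, 69.0 and 58.3 FPKM in EFTUD2-overexpressing cells, a log2 fold change of -0.18 (adjusted p = 0.45). The small subunit UQCR10 stood at 65.6, 70.0 and 73.0 against 58.8, 62.6 and 57.9 FPKM, a log2 fold change of -0.21 (95% interval -0.44 to 0.01, adjusted p = 0.403). Both were lower in every EFTUD2 library than in any control. CYC1, the cytochrome c1 heme protein, stood at 113 ± 6.59 and 119 ± 17.8 FPKM, and the core proteins UQCRC1 and UQCRC2 had log2 fold changes of 0.03 and 0.06.

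Complex IV, cytochrome c oxidase, had 7 members higher and 5 lower among the 12 tested, with a median log2 fold change of 0.03 that was -0.01 with a common sum and 0.15 with median-of-ratios scaling, where all 12 were higher. COX7C (Entrez gene 1350), a small subunit and the most abundant of the complex, measured 213, 306 and 269 FPKM in control cells against 319, 341 and 352 FPKM in EFTUD2-overexpressing cells. The controls were widely spread, and control replicate 1 was the lowest. The log2 fold change was 0.37 (standard error 0.15, 95% interval 0.00 to 0.74), with an adjusted p of 0.402, and it ran from 0.23, without control replicate 1, to 0.49 over the settings tried. COX6C (Entrez gene 1345), another small subunit, named after its values were seen, stood at 57.2, 71.1 and 68.3 against 79.4, 85.8 and 82.6 FPKM, a difference of 0.33 (log2, standard error 0.12) with an adjusted p of 0.402. Every EFTUD2 value of both genes lay above every control value.

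COX8A, another small subunit, measured 174, 203 and 193 FPKM in control cells against 218, 268 and 195 FPKM in EFTUD2-overexpressing cells, with overlapping groups and a log2 fold change of 0.25 (adjusted p = 0.457) that was 0.12 without EFTUD2 replicate 2. COX4I1, the regulatory subunit that binds ATP, stood at 252 ± 14.5 and 253 ± 10.8 FPKM (SD, n = 3 each), a log2 fold change of 0.00 (95% interval -0.24 to 0.25). COX6A1 and COX5B had log2 fold changes of -0.11 and -0.08.

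Several complex IV subunits have a form used in most tissues and another used in lung, testis, heart or skeletal muscle. In Hep G2 cells the widely used forms COX4I1, COX6B1, COX7B and COX8A carried nearly all of the RNA of their families. COX4I2, the lung and oxygen-regulated form of COX4, was listed at 0 in every control library and at 0.04 FPKM in every EFTUD2 library. The heart and muscle form COX7A1 gave 0.04, 0.10 and 0.03 FPKM in control cells against 0, 0.03 and 0 FPKM in EFTUD2-overexpressing cells. COX8C reached at most 0.05 FPKM, and COX7B2 was listed at 0 in all 6 libraries. These 4 genes, with ATP5MF-PTCD1 (at most 0.10 FPKM) and ATP5MGL (at most 0.07 FPKM), are the 6 members that did not pass the filter on low values, and they were not tested. COX4I2 was the only gene of the 6 whose groups did not overlap, at levels of a few hundredths of an FPKM.

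COX6B2, the testis form of COX6B, measured 0.28, 0.22 and 0.13 FPKM in control cells against 0.36, 0.22 and 1.39 FPKM in EFTUD2-overexpressing cells. The high value was that of EFTUD2 replicate 3 alone, and the log2 fold change was 0.39 with it and 0.09 without it. NDUFA4 was first counted with complex I and is now counted with complex IV, and it stood at 183 ± 20.5 and 176 ± 16.5 FPKM (SD, n = 3 each). Its hypoxia-induced relative NDUFA4L2 measured 0.67, 0.29 and 0.44 FPKM in control cells against 0.91, 2.15 and 0.51 FPKM in EFTUD2-overexpressing cells, a log2 fold change of 0.52 with a pseudocount of 1 (adjusted p = 0.427) and of 1.03 with a pseudocount of 0.1. The groups overlapped, and EFTUD2 replicate 2 held the highest value, without which the log2 fold change was 0.22. With both genes moved to complex IV, 9 members of complex I were higher and 29 lower.

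COX7A2L, which takes part in joining complexes III and IV into supercomplexes, made up 53.0% ± 1.25 of the summed FPKM of the COX7A genes in the controls and 56.9% ± 2.81 in the EFTUD2 libraries (SD, n = 3 each). The groups did not overlap (exact permutation p = 0.1, the smallest possible). The share was 55.4%, 55.1% and 60.1% in EFTUD2 replicates 1 to 3, against at most 53.8% in a control. The level of COX7A2L itself was 95.8 ± 8.76 and 107 ± 16.3 FPKM, with overlapping groups and an adjusted p of 0.595 (limma). Its log2 fold change was 0.15, and 0.03 without EFTUD2 replicate 3.

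In complex V, 7 members were higher and 12 lower among the 19 tested, with a median log2 fold change of -0.05 as deposited and 0.07 with median-of-ratios scaling. The catalytic subunit ATP5F1B measured 293, 325 and 310 FPKM in control cells against 343, 378 and 290 FPKM in EFTUD2-overexpressing cells. EFTUD2 replicates 1 and 2 lay above all controls and replicate 3 below them, and the log2 fold change was 0.12 (adjusted p = 0.671), 0.22 without replicate 3 and 0.03 without replicate 2. Its partner ATP5F1A had a log2 fold change of 0.04 (95% interval -0.20 to 0.27). The central stalk subunit ATP5F1C stood at 103, 128 and 122 against 137, 132 and 132 FPKM, a log2 fold change of 0.19 (adjusted p = 0.459) that was 0.10 without control replicate 1, with no overlap.

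ATP5MF, a small subunit of the membrane part, had the most negative log2 fold change of complex V, -0.26 (adjusted p = 0.484). It measured 194, 213 and 196 FPKM in control cells against 181, 200 and 129 FPKM in EFTUD2-overexpressing cells. The lowest value was that of EFTUD2 replicate 3, and the log2 fold change without it was -0.08. ATP5F1E, a small stalk subunit and the most abundant member, stood at 344 ± 52.1 and 329 ± 3.66 FPKM (SD, n = 3 each).

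The c-ring, the rotor that turns as protons pass, is encoded by the 3 genes ATP5MC1, ATP5MC2 and ATP5MC3, whose mature proteins are identical and whose import sequences differ. How the counting shared reads among them and their gene copies is not given in the sources used here. ATP5MC2 (Entrez gene 517), on chromosome 12 from 53632726 to 53677408 (GRCh38), measured 80.7, 81.5 and 86.7 FPKM in control cells against 98.1, 117 and 111 FPKM in EFTUD2-overexpressing cells. Every EFTUD2 value lay above every control value, with means of 83.0 ± 3.25 and 109 ± 9.56 FPKM (SD, n = 3 each), a ratio of 1.31. The log2 fold change was 0.38 (standard error 0.11, 95% interval 0.13 to 0.63), with an unadjusted p of 0.00918 and an adjusted p of 0.402 (limma), and it ran from 0.33 to 0.50 over the settings tried. ATP5MC1 and ATP5MC3 had log2 fold changes of 0.08 and -0.10, with overlapping groups.

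In the split of the c-ring RNA, the shares of ATP5MC2 and ATP5MC3 did not overlap between the groups, while those of ATP5MC1 did. Multiplying a whole library by a constant factor leaves such shares unchanged. ATP5MC3 made up 30.0%, 29.3% and 29.4% of the summed FPKM of the 3 genes in the controls and 25.1%, 24.7% and 25.2% in the EFTUD2 libraries. These shares were tight within each group, at 29.6% ± 0.383 and 25.0% ± 0.274 (SD, n = 3 each), EFTUD2 replicate 3 included. ATP5MC2 made up 34.1% ± 3.16 and 40.3% ± 3.22, and ATP5MC1 36.3% ± 3.5 and 34.7% ± 3.31 (SD, n = 3 each). For both ATP5MC2 and ATP5MC3 the exact permutation p was 0.1, the smallest possible, so neither difference can pass 0.05 by this test, and the families were looked at after the values of other genes were known.

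**Figure D4:**
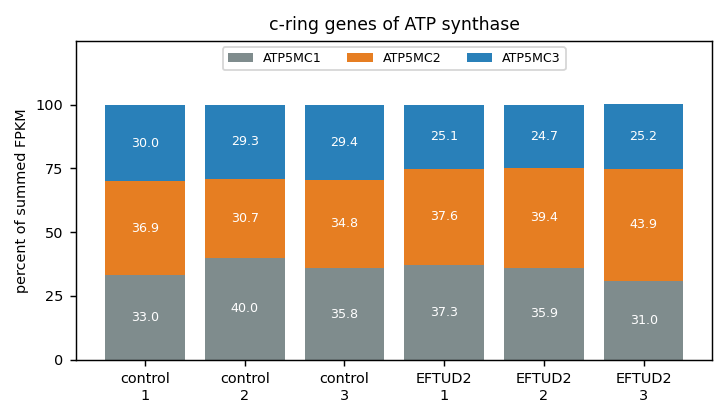
Share of each c-ring gene in the summed FPKM of the 3 genes, in percent, for each library. The share of ATP5MC3 is 29.3 to 30.0% in the controls and 24.7 to 25.2% in the EFTUD2 libraries, and that of ATP5MC2 is higher in every EFTUD2 library than in any control.

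The complexes differed in where each library stood. EFTUD2 replicate 3 was the lowest of the 6 libraries in 26 of 40 members of complex I and 11 of 19 of complex V, but in 1 of 12 of complex IV, 4 of 10 of complex III and 2 of 4 of complex II. Over all members it was the lowest in 51.8%, between the 45.7% of all genes and the 54.5% of genes whose mean reached 10 FPKM. Its median distance from the mean of the controls was -0.30 (log2) in complex I and 0.00 in complex IV, against -0.15 over all genes. Control replicate 1 was the lowest library in 35.3% of the members, against 10.4% of all genes and 14.2% of those reaching 10 FPKM, and control replicate 2 the highest in 48.2%, against 22.8% and 35.8%. Leaving out a single library moved the counts of members in each direction. Without EFTUD2 replicate 3, 45 of the 85 members were higher and the median was 0.00, while without control replicate 1, 21 of 84 were higher and the median was -0.13.

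**Figure D5:**
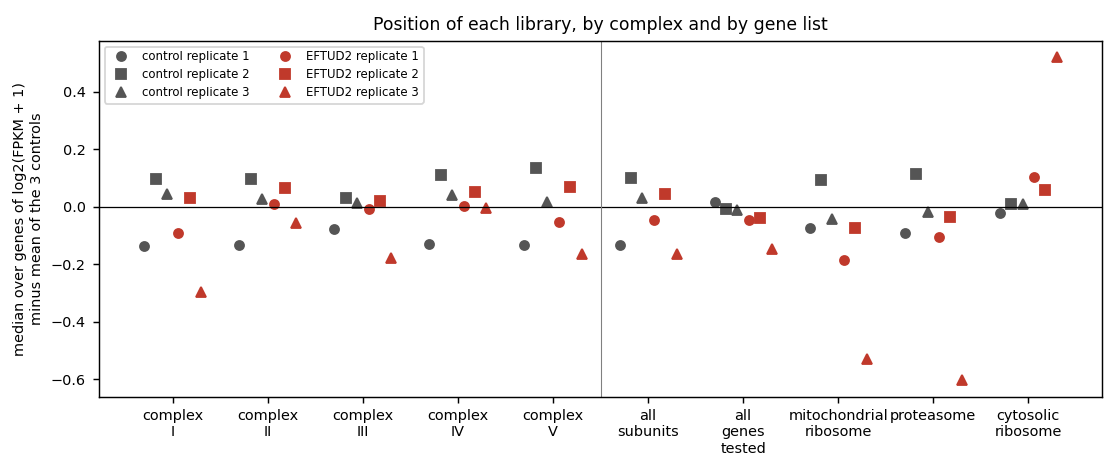
Median over the genes of each complex or list of log2(FPKM + 1) minus the mean of the 3 controls, for each library (grey control, red EFTUD2). EFTUD2 replicate 3 lies at -0.30 in complex I and near 0 in complex IV, at -0.53 in the mitochondrial ribosome, at -0.60 in the proteasome and at 0.52 in the cytosolic ribosome.

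Other genes of mitochondrial energy metabolism were counted in lists of related genes, beside 37.3% of all genes tested that were higher in the EFTUD2 libraries as deposited. Of 50 assembly factors, which build the complexes but are not part of them, 8 were higher and 42 lower, with a median log2 fold change of -0.21 (-0.25 to -0.10 under the 3 other scalings). At an unadjusted p under 0.05, 1 was higher and 7 were lower, beside 4.4% and 7.9% of all genes tested. Without overlap, 15 of the 50 (30.0%) were lower, beside 19.4% of all genes. EFTUD2 replicate 3 was the lowest library for 33 of them, and without it 37 were lower, with a median of -0.11. Of 18 genes of the citric acid cycle and pyruvate dehydrogenase, 10 were higher and 8 lower, with a median of 0.05 (0.01 to 0.16 under the other scalings). IDH2, the mitochondrial NADP-dependent isocitrate dehydrogenase, measured 49.1, 71.8 and 77.8 FPKM in control cells against 99.6, 103 and 105 FPKM in EFTUD2-overexpressing cells, a log2 fold change of 0.65 (unadjusted p = 0.00848, adjusted p = 0.402), with no overlap. Of 14 genes for other electron carriers, 5 were higher and 9 lower, with a median of -0.13 (-0.17 to -0.02 under the other scalings), 0 at an unadjusted p under 0.05 and 0 at an adjusted p under 0.05 by limma.

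Among 12 regulators of mitochondrial biogenesis, 2 were higher (16.7%, beside 37.3% of all genes tested) and 10 lower. Their median log2 fold change was -0.19 (-0.22 to -0.08 under the other scalings). Without EFTUD2 replicate 3, 1 was higher and 11 were lower, with a median of -0.12. PPARGC1A, the coactivator PGC-1alpha, measured 7.14, 3.72 and 5.01 FPKM in control cells against 5.63, 4.44 and 11.02 FPKM in EFTUD2-overexpressing cells, with overlapping groups. TFAM, which packs and transcribes mitochondrial DNA, stood at 29.03, 32.1 and 31.6 against 28.5, 31.3 and 17.4 FPKM. In both genes EFTUD2 replicate 3 was far from the other 2 EFTUD2 libraries. NRF1, GABPA and ESRRA, transcription factors of nuclear genes for mitochondrial proteins, had log2 fold changes of -0.19, -0.11 and -0.15, each with overlapping groups and an adjusted p of at least 0.503.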

How the data were processed

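RNA was extracted with Trizol, enriched by poly-A selection and sequenced on the BGISEQ-500 platform. The authors deposited FPKM per gene for 6 libraries, rounded to 2 decimals. The submitters' processing notes name HISAT2, Bowtie2, RSEM, DESeq2 and the build hg38. The annotation, the counting options and the read numbers are not given in the sources used here, so no interval from counts could be set. Groups and replicate numbers came from the labels.

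The FPKM values were compared as log2(FPKM + 1) over the 17222 genes whose mean reached 0.1 FPKM. The test was that of limma 3.58.1 in R 4.3.3, with a mean-variance trend and Benjamini-Hochberg adjustment to 0.05. This scale understates the change of low genes. For shares and single values, the permutation test was exact and two-sided. Other steps used Python 3.11.15, pandas 2.3.3, numpy 2.4.6 and matplotlib 3.10.9, and the test was checked on simulated data. All 91 members matched the RefSeq gene table by Entrez number. Promoter windows came from RefSeq (GRCh38.p14) and gene positions from GENCODE release 29.

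The members and lists were chosen with earlier results of these data known. The lists were assembly factors, biogenesis regulators, citric acid cycle genes, electron carriers, mitochondrial and cytosolic ribosome, proteasome and glycolysis. Named by rule were SDHA to SDHD, CYC1, core complex I subunits, catalytic and c-ring genes of ATP synthase, UQCRC1, UQCRC2, UQCRFS1, the isoform families of complex IV, NDUFA4 and NDUFA4L2, the most abundant and the most different members of each complex, members with an unadjusted p under 0.01 and members that did not pass the filter. From each list, up to 3 genes in each direction with an unadjusted p under 0.01 were named, and 5 regulators. Alternatives were a pseudocount of 0.1, other filters on low values, 3 other scalings, array weights, robust empirical Bayes, a block for the replicate number and fits that each left out 1 library. The result for 1 single gene is not reported here.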

Additional observations from a re-analysis of the deposited data

How the results depend on the processing

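Under median-of-ratios scaling, the median log2 fold change was 0.042 over the members, 0.14 in complex II and 0.15 in complex III, and 25 members changed sign. With array weights, 1246 genes (916 higher, 330 lower) passed an adjusted p of 0.05, as did 4 members, ATP5MC2 (0.42, adjusted p = 0.0188), COX8A (0.43, 0.0484), NDUFA4L2 (1.02, 0.0119) and NDUFA6 (-0.62, 0.0143). These weights ran from 0.0348 (EFTUD2 replicate 1) to 27.7 (control replicate 3), and limma warned that their estimation stopped before it converged, so these calls are not dependable. Leaving out each library in turn gave 0 to 167 genes and 0 to 1 members (NDUFA6), the higher counts without EFTUD2 replicate 3, where 153 genes were higher and 14 lower. The median of the members then ran from -0.13 to 0.01, and that of complex III from -0.055 (without EFTUD2 replicate 2) to 0.063 (without control replicate 3). The cause of these changes was not tested. For single named members, 617 comparisons with an alternative kept their side of the threshold and stayed within the standard error of the main fit. Another 36 kept their side but moved further. Small differences could change sign in either case. The 5 that passed the threshold are the 4 above with array weights and NDUFA6 without EFTUD2 replicate 3. The other settings gave 0 genes with an adjusted p under 0.05 by limma.

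With the replicate number as a block, 0 genes and 0 members had an adjusted p under 0.05, 774 genes were higher and 1253 lower at an unadjusted p under 0.05, and 2 members were higher (ATP5MC2, COX6C) and 1 lower (NDUFA6). The replicate block left the median of the members at -0.07. The deviations of same-numbered libraries correlated at -0.30, 0.35 and -0.09, and not every library correlated best with its own number. Deviations from a group mean depend on each other, so these values cannot show whether same-numbered libraries belong together.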

Other observations

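Other gene groups stood farther from the controls in EFTUD2 replicate 3 than the respiratory chain genes did. As deposited, 37.3% of all genes tested were higher in the EFTUD2 libraries. Of 78 proteins of the mitochondrial ribosome, which makes the subunits encoded in the mitochondrial genome, 5 were higher and 73 lower in the EFTUD2 libraries, with a median log2 fold change of -0.27, and EFTUD2 replicate 3 was the lowest library for 68 of them. At an unadjusted p under 0.05, 0 were higher and 19 lower, beside 4.4% and 7.9% of all genes tested. Without overlap, 28 (35.9%) were lower, beside 19.4% of all genes. MRPS18A measured 61.4, 50.4 and 50.8 FPKM in control cells against 37.9, 39.2 and 32.6 FPKM in EFTUD2-overexpressing cells, a log2 fold change of -0.55 (limma, adjusted p = 0.364). MRPL44 and MRPL52 had log2 fold changes of -0.51 and -0.37 (adjusted p = 0.402 for each), also without overlap. Of 37 proteasome genes, 3 were higher and 34 lower, with a median of -0.27, and this library was the lowest for 35. Of 82 cytosolic ribosomal protein genes, 73 were higher and 9 lower, with a median of 0.24, and this library was the highest for 76. Under the 3 other scalings, the medians were -0.31 to -0.15 for the mitochondrial ribosome, -0.32 to -0.16 for the proteasome and 0.02 to 0.35 for the cytosolic ribosome. The medians of this library alone, against the controls, were -0.53, -0.60 and 0.52. Without it, 63 genes of the mitochondrial ribosome and 26 of the proteasome were lower and 66 of the cytosolic ribosome were higher, with medians of -0.12, -0.09 and 0.09, beside -0.04 over all genes tested.

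Of 19 glycolysis genes, 14 were higher (73.7%, beside 37.3% of all genes tested) and 5 lower. Their median log2 fold change was 0.20 (0.16 to 0.30 under the other scalings). Without overlap, 7 (36.8%) were higher, beside 7.92% of all genes. Without EFTUD2 replicate 3, 16 were higher and the median was 0.34. LDHB, a lactate dehydrogenase subunit, measured 0.12, 0.11 and 0.13 FPKM in control cells against 24.99, 53.3 and 2.67 FPKM in EFTUD2-overexpressing cells, a log2 fold change of 3.95 (limma, unadjusted p = 0.00335, adjusted p = 0.358). All EFTUD2 libraries lay above all controls, and they differed widely from each other.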
